A study of Mus musculus with 3 samples.

Results

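The 9 genes described here encode the heavy chains of the mouse major histocompatibility complex (MHC) class I and their shared light chain, beta-2-microglobulin. They were taken by symbol from the deposited gene table: H2-K1, H2-D1, H2-Q4, H2-Q6, H2-Q7, H2-T22, H2-T23 and H2-M3 for the heavy chains, and B2m for the light chain. Each symbol had 1 row, so that 9 of the 24523 genes of the table are covered. The study knocked out Kdm1a, the gene of the histone demethylase LSD1, in cultured mouse cells of small cell lung cancer (SCLC), line number 3 of the submitters, and measured mRNA by RNA sequencing. Knock-out cells had been infected with a lentiviral CRISPR vector carrying guide sg1 or guide sg2 against Kdm1a (n = 2 libraries, 1 per guide), and control cells with the vector Crispr-V2, for which the labels name no guide (n = 1 library). All 3 infected cultures were kept under puromycin. The labels name no picking of clones, and neither the share of edited alleles nor the protein was measured here. The mouse strain of the line, which sets its class I alleles, is not given in the sources used here.

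A class I molecule is a heavy chain that holds a peptide from inside the cell and is bound to beta-2-microglobulin, without which most heavy chains do not reach the cell surface. The classical heavy chains, of which H2-K1 and H2-D1 belong to the mouse, show peptides to CD8 T cells. The non-classical chains of the Q, T and M regions are ligands of more specialised T cells and of natural killer cells. Class I promoters are known to hold an NF-kappaB site next to an interferon-stimulated element, followed by the SXY module, through which the transactivator NLRC5 acts. Neuroendocrine tumours such as SCLC are known for low class I levels.

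Promoter sequences are shown for 6 of the genes because those regions carry the elements named above and let the members be compared base by base. They were read from RefSeq windows on GRCm38.p6, the assembly of mm10, on the strand of the gene and from 5′ to 3′. Capitals mark the interferon-stimulated element core, the NF-kappaB consensus, the letters TGACG, which form the core of the X2 box, and the CCAAT box, on either strand. Positions count from the start of the RefSeq window, which is at 34000347 in H2-K1, 272 bases inside the gene's span, and at 35439155 in H2-Q7, 15 bases inside it. H2-K1 has 2 windows, of which the first listed was used.
B2m (chr2:122147523-122147657, plus strand, bases -164 to -30 from the start): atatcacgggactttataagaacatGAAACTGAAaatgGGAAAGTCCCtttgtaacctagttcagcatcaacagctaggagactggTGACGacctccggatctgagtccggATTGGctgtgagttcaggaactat
H2-K1 (chr17:34000328-34000462, minus strand, bases -115 to 20 from the start): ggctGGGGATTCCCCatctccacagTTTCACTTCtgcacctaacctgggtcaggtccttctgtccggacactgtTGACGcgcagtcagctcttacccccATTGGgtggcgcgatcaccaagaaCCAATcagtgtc
H2-D1 (chr17:35262919-35263053, plus strand, bases -175 to -41 from the start): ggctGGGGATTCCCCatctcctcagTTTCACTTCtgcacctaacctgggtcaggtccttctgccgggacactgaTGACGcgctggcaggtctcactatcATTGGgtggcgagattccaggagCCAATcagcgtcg
H2-Q4 (chr17:35379439-35379573, plus strand, bases -178 to -44 from the start): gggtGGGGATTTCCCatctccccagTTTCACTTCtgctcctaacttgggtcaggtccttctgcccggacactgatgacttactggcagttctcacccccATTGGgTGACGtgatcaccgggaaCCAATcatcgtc
H2-Q7 (chr17:35439017-35439151, plus strand, bases -138 to -4 from the start): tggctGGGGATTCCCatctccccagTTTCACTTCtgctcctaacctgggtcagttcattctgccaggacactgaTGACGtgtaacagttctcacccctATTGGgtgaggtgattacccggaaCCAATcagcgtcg
H2-T23 (chr17:36032715-36032849, minus strand, bases -148 to -14 from the start): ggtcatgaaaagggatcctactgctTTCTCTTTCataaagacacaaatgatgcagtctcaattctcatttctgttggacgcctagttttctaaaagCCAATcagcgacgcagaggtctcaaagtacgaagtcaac
In H2-K1, H2-D1 and H2-Q4 the first run of capitals is the NF-kappaB match and the second is the interferon core, in B2m their order is turned round, and H2-T23 has the interferon core without an NF-kappaB match.

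The libraries held 44667861 counts with sg1, 51066078 with sg2 and 43424212 in the control. Kdm1a itself had 3950 counts with sg1, 5716 with sg2 and 11468 in the control, a log2 fold change of -1.40 (SE 0.404) that missed the threshold of 0.05 (adjusted p = 0.0537, edgeR's quasi-likelihood test). The p-values below come from that test over 15936 genes. They set each change against the spread between the 2 guides, the lone control being assumed to vary likewise. That spread came mostly from all genes together, with 1 residual degree of freedom for a gene's own guides and 11.5 for the prior. The labels do not say that the guides were infected on separate occasions. RPKM are the authors' reads per kilobase of gene, scaled to library size, and CPM are counts scaled to library size with edgeR's TMM factors. Folds of single libraries carry 95% counting intervals, which cover counting error and no other, because PCR copies of a molecule were not told apart from separate molecules. In bulk RNA, more cells with class I transcripts and more transcripts per cell cannot be told apart.

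Class I transcripts were higher in the knock-out. Of the 9 members 6 rose by edgeR's test and 0 fell, against 6.33% of all genes tested that rose and 1.7% that fell. At an unadjusted p under 0.05, 0 members were lower, and 0 were lower by DESeq2, limma-voom or limma-trend. Those that rose were B2m, H2-K1, H2-D1, H2-Q4, H2-Q6 and H2-Q7, and those that did not pass were H2-T22, H2-T23 and H2-M3. All 9 members were above the control with both guides, as 41.2% of all genes tested were. All 9 were at least 1.5-fold higher with both, as 18.3% of all genes tested were. The median log2 fold change of the members was 3.82, and that of all genes tested 0.06. In the authors' deposited table of increased genes, which holds 7.47% of the genes, 6 of the 9 members appear: B2m, H2-K1, H2-D1, H2-Q4, H2-Q7 and H2-M3.

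**Figure D1:**
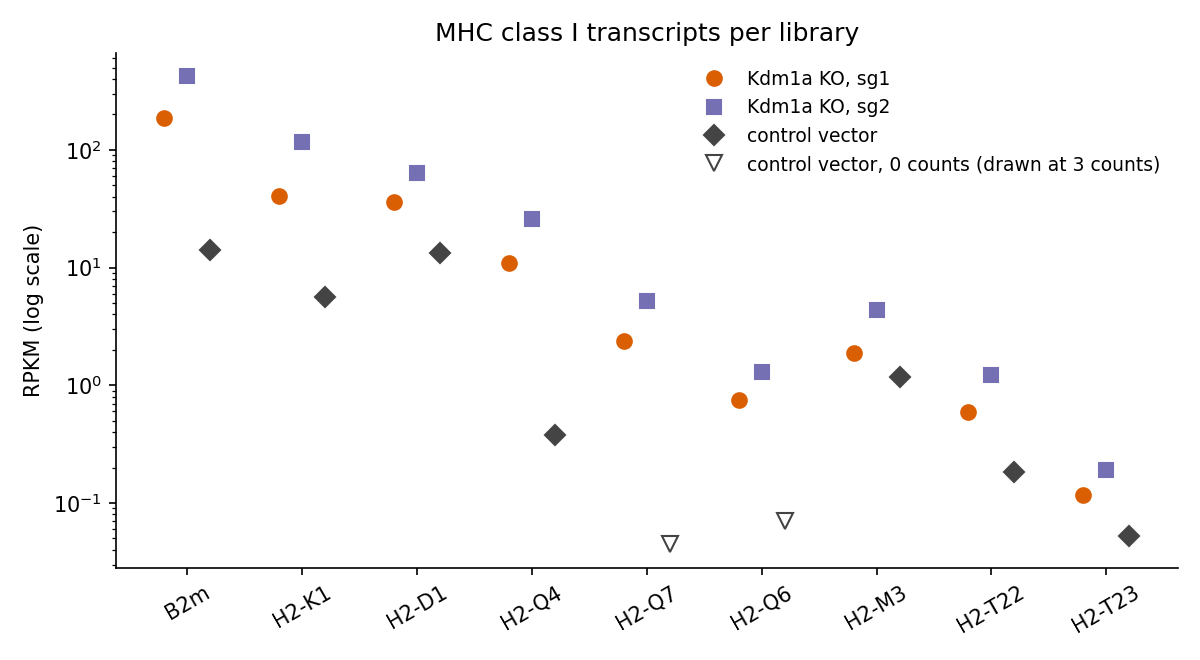
Level of each class I transcript in the sg1, sg2 and control vector libraries, as the authors' RPKM on a log axis. Each point is 1 library, and open triangles stand for control counts of 0, drawn at the level of 3 counts. In each of the 9 genes the sg2 library lies highest and the control lowest, from 421 against 14.2 RPKM for B2m to 0.191 against 0.052 RPKM for H2-T23.

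B2m encodes the light chain that all the heavy chains listed here share (NM_009735; chromosome 2, 122147687 to 122153082). It had 7289 counts with sg1 and 18662 with sg2, against 532 in the control, or 188 and 421 RPKM against 14.2 RPKM. Both knock-out libraries lay far above the control, and sg2 above sg1. The fold over the control was 13.2 with sg1 (12.1 to 14.4) and 30.1 with sg2 (27.6 to 32.9). The knock-out averaged 265 ± 147 CPM (SD, n = 2) and the control had 12.3 CPM, a log2 fold change of 4.43 (SE 0.640, edgeR adjusted p = 0.000742). B2m was the most abundant member per length in all 3 libraries. In the control it stood level with H2-D1 within counting error, at 1.06 times its RPKM (0.952 to 1.18).

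H2-K1 is a classical heavy chain at the centromeric end of the complex (NM_001001892; chromosome 17, 33996012 to 34000619). It had 3009 counts with sg1 and 10013 with sg2, against 407 in the control, or 40.6 and 118 RPKM against 5.65 RPKM. Both knock-out libraries lay above the control, and of all members this one had the widest gap between the guides. The fold over the control was 7.10 with sg1 (6.40 to 7.90) and 21.1 with sg2 (19.1 to 23.4). Its log2 fold change of 3.82 (SE 0.693) passed edgeR's test (adjusted p = 0.0036).

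H2-D1, the other classical heavy chain of the list (NM_010380; chromosome 17, 35263094 to 35267497), changed less. It had 2813 counts with sg1 and 5754 with sg2, against 1016 in the control, or 36.0 and 64.2 RPKM against 13.4 RPKM. Both knock-out libraries lay above the control, in which H2-D1 was the most abundant of the 8 heavy chains per length. The fold was 2.66 with sg1 (2.48 to 2.86) and 4.86 with sg2 (4.54 to 5.20), and the log2 fold change 1.91 (SE 0.519, edgeR adjusted p = 0.0408). This call is close to the threshold and held in 3 of 10 other analyses, in which the adjusted p ran between 0.00376 and 0.131.

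The Q region, between H2-D1 and the T region, gave the genes with the lowest control levels relative to the knock-out. H2-Q4, a non-classical heavy chain (NM_001143689; chromosome 17, 35379617 to 35384674), had 889 counts with sg1 and 2403 with sg2, against 30 in the control, or 11 and 26.0 RPKM against 0.382 RPKM. It was a minor transcript in the control and the third heavy chain in the knock-out. The fold was 28.5 with sg1 (19.8 to 42.5) and 68.7 with sg2 (48.0 to 102), and the log2 fold change 5.60 (SE 0.781, edgeR adjusted p = 0.000601). H2-Q7 (NM_001198560; chromosome 17, 35439140 to 35443773) encodes Qa-2, a heavy chain that is largely held in the membrane by a lipid anchor. It had 164 counts with sg1 and 412 with sg2, against 0 in the control, or 2.37 and 5.20 RPKM. With the control set at its limit of 3 counts, 0.0692 CPM, the knock-out mean of 5.89 ± 3.19 CPM was at least 85.2-fold higher (edgeR adjusted p = 0.000929). H2-Q6 (NM_207648; chromosome 17, 35424850 to 35430055), its neighbour and near copy, had 33 counts with sg1 and 66 with sg2, against 0 in the control. Its knock-out mean of 1.02 ± 0.406 CPM was at least 14.7-fold higher (edgeR adjusted p = 0.0406). The call of H2-Q6 held in 3 of 9 other analyses, with adjusted p between 0.00484 and 0.156. The calls of B2m, H2-K1, H2-Q4 and H2-Q7 held in 9 of 10, and the analysis that lost them was limma-trend on log2(RPKM + 1), under which 0 of the 9 members passed.

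The members of the M and T regions did not pass the test. H2-M3 presents peptides with a formylated first residue, as bacteria and mitochondria make them (NM_013819; chromosome 17, 37270234 to 37274485). It had 121 counts with sg1 and 324 with sg2, against 74 in the control, or 1.88 and 4.41 RPKM against 1.19 RPKM. Its fold was 1.57 with sg1 (1.17 to 2.13) and 3.75 with sg2 (2.91 to 4.90), and the log2 fold change 1.41 (SE 0.828, edgeR adjusted p = 0.430). With sg1 it was thus just past the 1.5-fold mark. H2-T22 (NM_001347382; chromosome 17, 36037128 to 36042742), which some gamma delta T cells recognise, had 47 counts with sg1 and 112 with sg2, against 14 in the control. Its fold was 3.23 with sg1 (1.75 to 6.34) and 6.86 with sg2 (3.92 to 13.0), and the log2 fold change 2.33 (SE 1.15, edgeR adjusted p = 0.318). The fold of H2-T22 exceeded that of H2-D1 with both guides, at far lower counts and with a larger SE.

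H2-T23 encodes Qa-1, which shows leader peptides of other class I chains to the CD94/NKG2 receptors of natural killer cells (NM_010398; chromosome 17, 36029977 to 36032701). It had 7 counts with sg1, 13 with sg2 and 3 in the control, or 0.118 and 0.191 RPKM against 0.052 RPKM. It was the lowest of the members with both guides, and its intervals were wide. Its fold was 2.24 with sg1 (0.512 to 13.4) and 3.72 with sg2 (1.02 to 20.3). The ratio of both guides pooled to the control was 3.02, with a counting interval of 0.896 to 15.9, which includes 1, and the log2 fold change 1.54 (SE 1.89, edgeR adjusted p = 0.774).

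The order of levels per length differed between knock-out and control. With either guide it ran from B2m over H2-K1, H2-D1, H2-Q4, H2-Q7, H2-M3, H2-Q6 and H2-T22 to H2-T23. In the control it ran from B2m over H2-D1, H2-K1, H2-M3, H2-Q4 and H2-T22 to H2-T23, with H2-Q6 and H2-Q7 at 0 counts. Some neighbours in these orders did not differ beyond counting error: H2-Q6 and H2-T22 with both guides, H2-Q7 and H2-M3 with sg1, and B2m and H2-D1 as well as H2-T22 and H2-T23 in the control. The ranges of H2-K1 and H2-D1 over the guides overlapped, with means of 79.2 ± 54.7 and 50.1 ± 20.0 RPKM in the knock-out (SD, n = 2).

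The make-up of the class I transcripts was then followed as the share of each heavy chain in their summed RPKM. The sum was 93.2 RPKM with sg1 and 220.4 RPKM with sg2, against 20.8 RPKM in the control, 4.48 and 10.59 times the control. H2-K1 made up 43.5% with sg1 and 53.5% with sg2, against 27.1% in the control. H2-D1 made up 38.6% with sg1 and 29.1% with sg2, against 64.2% in the control. The control's heavy chain transcripts were thus mostly H2-D1, and with both guides H2-K1 was the leading chain. The ratio of H2-K1 to H2-D1 per length was 1.13 with sg1 (1.07 to 1.19) and 1.84 with sg2 (1.78 to 1.90), against 0.422 in the control (0.376 to 0.474). Both guides lay on the other side of parity from the control by more than counting error.

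H2-Q4 contributed 11.8% of the heavy chain sum with sg1 and 11.8% with sg2, against 1.84% in the control. H2-M3, with the smallest fitted log2 fold change of the members, made up 2.02% and 2.0% with the guides and 5.70% in the control. H2-Q7 gave 2.54% and 2.36% with the guides and 0 in the control. Those shares were nearly equal between sg1 and sg2 although the sums differed by more than a factor of 2. The light chain outran the heavy chains: B2m over summed heavy chain RPKM was 2.02 with sg1 and 1.91 with sg2, against 0.680 in the control. There is 1 library per guide and 1 control, so these ratios describe the libraries and carry no test.

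**Figure D2:**
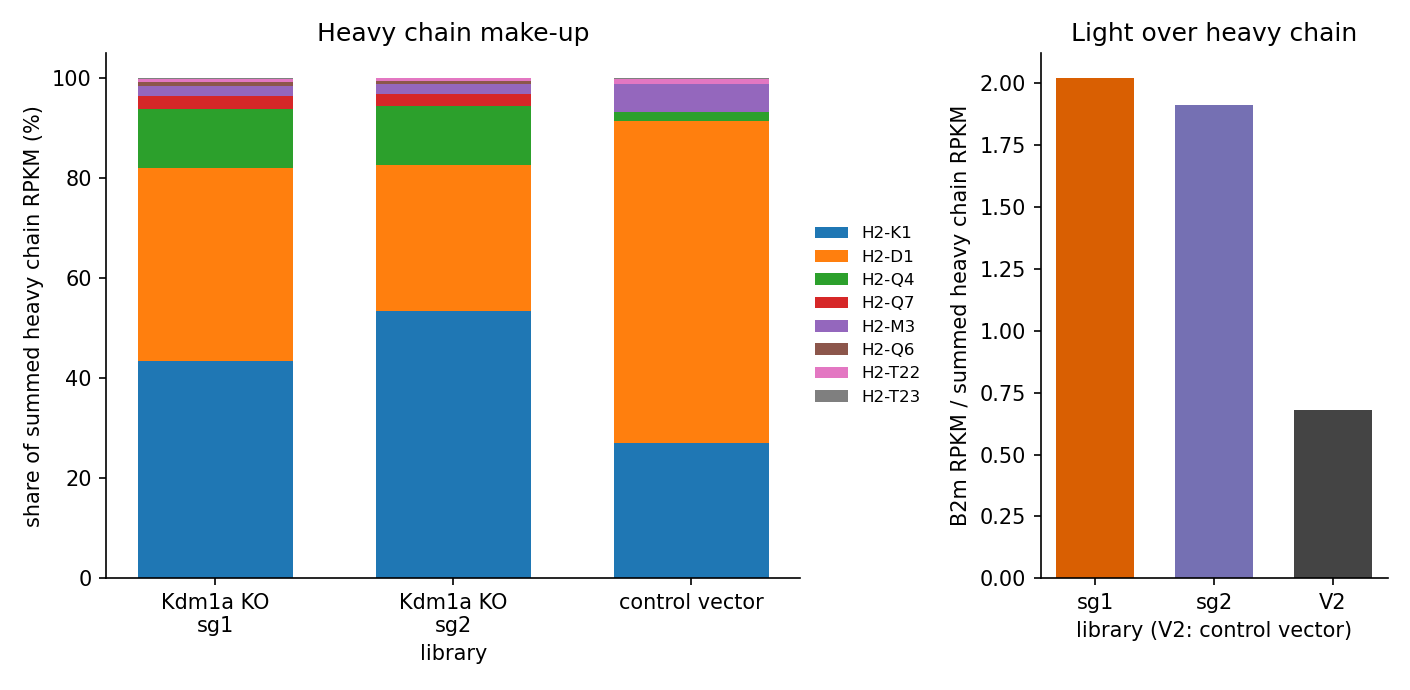
Left, share of each heavy chain in the summed heavy chain RPKM of the sg1, sg2 and control vector libraries, in percent. Right, RPKM of B2m over that sum. H2-D1 takes 38.6% and 29.1% of the sum with sg1 and sg2 and 64.2% in the control, and the light to heavy ratio is 2.02 and 1.91 with the guides and 0.680 in the control.

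Within the knock-out, the sg2 library was set against the sg1 library. All 9 members had a higher CPM with sg2 than with sg1, as 48.2% of all genes tested had. All 9 were at least 1.5-fold higher with sg2, as 17% of all genes were, and for 8 of the 9 the counting interval of the ratio lay above 1. The ratio of sg2 to sg1 was 2.97 for H2-K1 (2.85 to 3.09) and 2.29 for B2m (2.22 to 2.35). It was 1.83 for H2-D1 (1.74 to 1.91) and 1.66 for H2-T23, whose interval of 0.615 to 4.91 includes 1. H2-Q4, H2-Q7, H2-T22 and H2-M3 lay between 2.13 and 2.41, and H2-Q6 at 1.79 (1.16 to 2.80). The median log2 ratio of sg2 to sg1 was 1.16 for the members and -0.03 for all genes tested. Gene length moved with this ratio: over the 3185 tested genes in the length range of the members, 866 to 1810 bases as implied by counts and RPKM, its median was 0.29. With the length trend removed, an analysis added after the data were seen, 4 of the 9 members passed edgeR's test of knock-out against control. The ratio of sg2 to sg1 was not computed with that trend removed. The sg2 library also held more Kdm1a mRNA than the sg1 library, 113 against 87.5 CPM. Whether guide or library made the difference cannot be told apart with 1 library per guide.

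**Figure D3:**
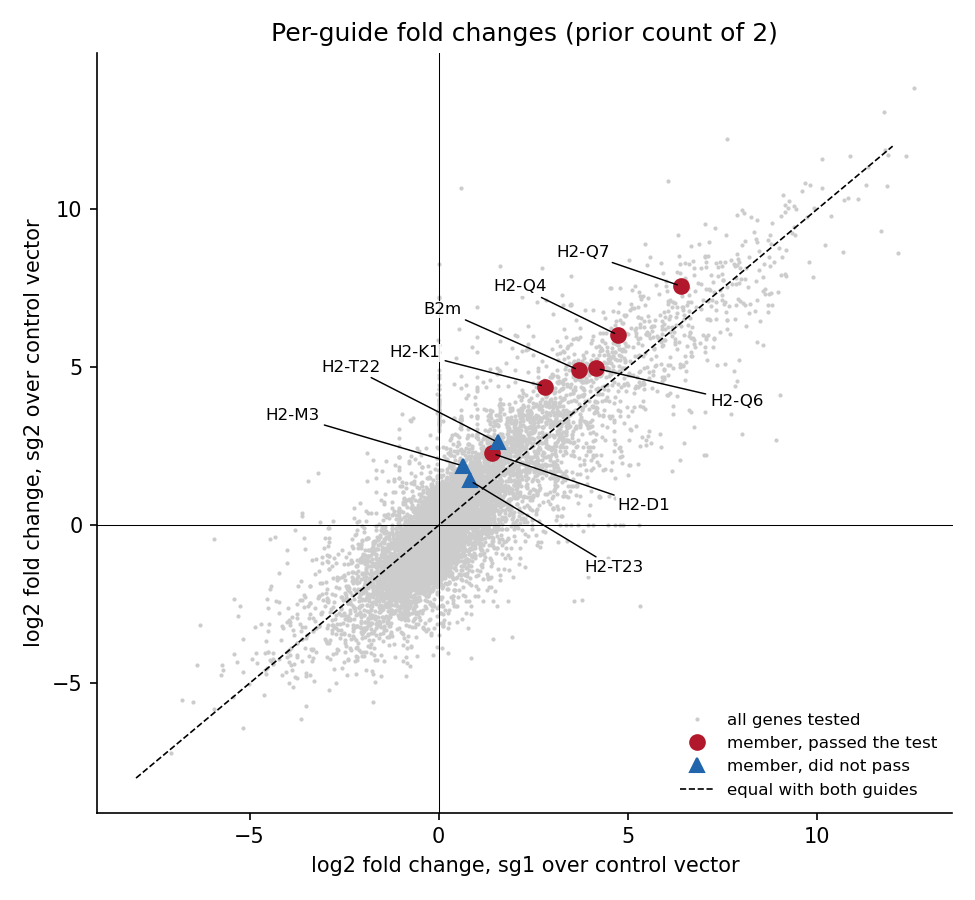
Log2 fold change over the control vector with sg1 (horizontal) and with sg2 (vertical) for the 15936 genes tested, at a prior count of 2. Grey points are all genes, circles members that passed edgeR's test and triangles members that did not, and the dashed line marks equal change with both guides. The 9 class I genes lie right of and above 0, and above the dashed line.

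Several class I genes are close copies of each other, and how the authors counted reads with more than 1 possible origin is not given in the sources used here. Sequence was therefore compared over every stretch of 125 bases, the shorter read length named by the submitters, of the protein-coding transcripts of an older mouse annotation (GENCODE M1). For H2-T22, 67.6% of its stretches occurred within 2 mismatches in transcripts of other genes, mostly in H2-T10 (61.5%). For H2-Q6 the share was 23.8%, for H2-Q7 19.4%, with H2-Q6 as the main partner (18.5%), and for H2-Q4 14.7%. For H2-K1 it was 8.04%, for H2-D1 7.43% and for H2-T23 6.68%. B2m and H2-M3 had no such stretch. The values of H2-T22, H2-Q6 and H2-Q7 as single genes are therefore the most uncertain, and those of B2m and H2-M3 rest on sequence with no such match. The counts of the 8 heavy chains summed, in which reads moved among them cancel, came to 7083 with sg1 and 19097 with sg2, against 1544 in the control, a fitted log2 fold change of 2.91. Reads moved between these chains and other genes do not cancel in that sum. H2-T10, which is not part of it, had 227 counts with sg1 and 446 with sg2, against 138 in the control.

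Overlapping annotations were checked as well, because the strand setting of the counting is not given. All of H2-T23 and 18.6% of H2-T22 lie inside the span of the long non-coding RNA A930015D03Rik, which had 26 counts with sg1 and 74 with sg2, against 25 in the control. H2-T23 had lower counts than this RNA in each library. The overlap is one of whole spans, introns included. Whether the low counts of H2-T23 gained or lost reads through it was not measured. B2m lies wholly inside the span of Patl2, which had 11 counts with sg1, 2 with sg2 and 5 in the control. Those counts are small beside the 532 of B2m in the control.

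The promoter windows, 250 bases before to 50 after the annotated start, were found for 9 of 9 members among 32851 windows of 27025 genes. These searches were chosen with the fold changes known, and a match describes letters and not a bound site. The interferon core was searched as GAANNGAAA or GAAANNGAA on both strands, and all 9 members had it, as 14.8% of all windows did. The NF-kappaB consensus was in 8 of 9 members and in 4.51% of all windows, and the member without it was H2-T23. In H2-K1, H2-D1, H2-Q4 and H2-Q6 it matched in 2 overlapping registers. Both elements together stood in 8 members and in 0.633% of all windows. TGACG was in 7 of 9 members and in 20.8% of windows, and the members without it were H2-Q6 and H2-T23. Its first match began 49 bases after the first base of the interferon core in H2-K1, H2-D1 and H2-Q7, 55 in H2-M3 and 61 in B2m. In H2-Q4 it began 80 bases after, between the CCAAT matches, and in H2-T22 168 bases after, so that these letters stand at another place there. CCAAT was in 9 of 9 members and in 37.4% of windows.

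**Figure D4:**
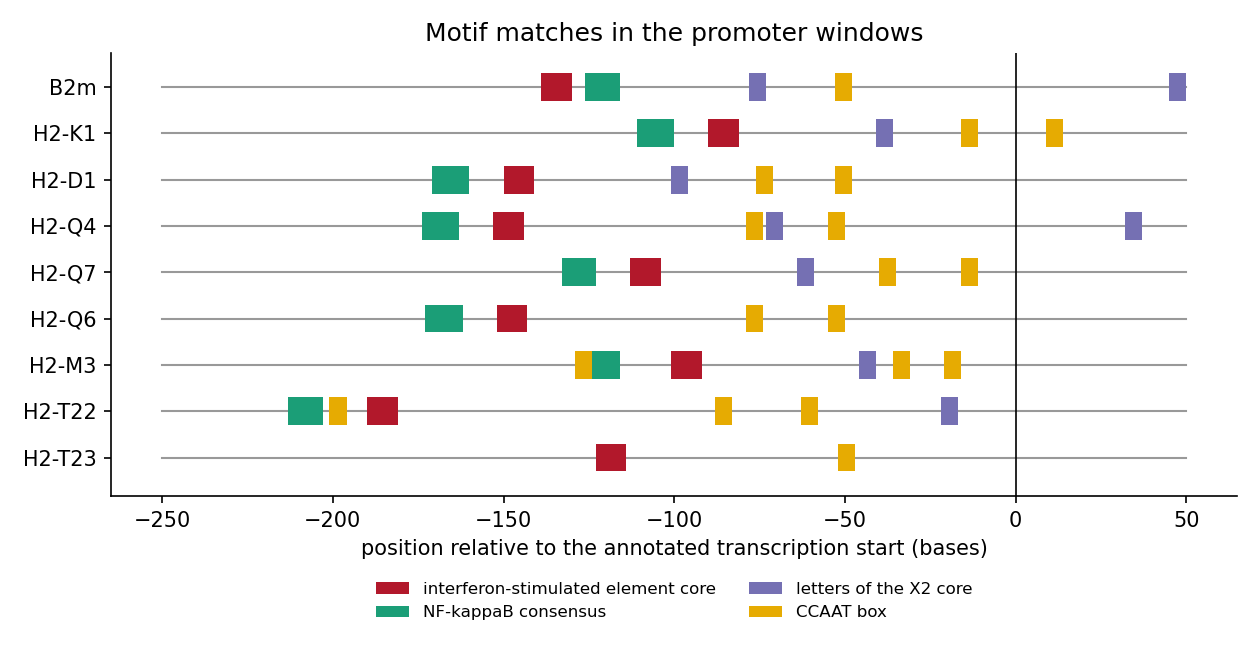
Position of motif matches in the promoter window of each class I gene, in bases from the annotated transcription start, drawn on the strand of the gene. The interferon core (red) is in all 9 windows, and the NF-kappaB consensus (green) lies upstream of it in H2-K1, H2-D1, H2-Q4, H2-Q6, H2-Q7, H2-M3 and H2-T22 and downstream of it in B2m.

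Aligned without gaps on the interferon core over 135 bases, H2-Q6 and H2-Q7 were identical at 92.6% of positions, H2-K1 and H2-Q4 at 85.2% and H2-K1 and H2-D1 at 77.8%. H2-Q6 and H2-Q7 were less like H2-K1, at 62.2% and 59.3%, and less like H2-Q4, at 63.7% and 63.0%. H2-K1 and B2m were identical at 25.2%. H2-K1 and H2-Q4, the second most alike pair of windows, had folds of 21.1 and 68.7 with sg2, and H2-D1 one of 4.86. The window of H2-T23 lacked both the NF-kappaB consensus and TGACG. That of H2-Q6, which passed edgeR's test, also lacked TGACG, and that of H2-M3, which did not pass, held each searched motif. Whether motifs go with level or change among the members was not tested. Across all tested genes with a window, 9.29% of the 1754 with the interferon core were called higher by edgeR, against 5.61% of the 10579 without it. For the NF-kappaB consensus the shares were 10.7% with and 5.83% without it. For TGACG and CCAAT they ran the other way, at 4.37% with and 7.02% without TGACG, and at 5.65% with and 6.49% without CCAAT.

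The machinery that feeds and controls class I was counted in the same fit, in which 6.33% of all genes tested rose and 1.7% fell. Of 8 genes of peptide transport and loading 3 rose and 0 fell. Tap1 and Tap2 form the peptide pump of the endoplasmic reticulum. Tap1 had 905 counts with sg1 and 1919 with sg2, against 119 in the control, and rose 7.31-fold with sg1 and 13.8-fold with sg2 (edgeR adjusted p = 0.00449). Tap2 had 612 and 1970 counts with the guides and 83 in the control, and rose 7.08-fold with sg1 and 20.4-fold with sg2 (adjusted p = 0.00693). Tapbp, the tapasin that couples the pump to the heavy chain, rose 4.30-fold with sg1 and 8.51-fold with sg2 (adjusted p = 0.00832). As in the class I genes, the change was larger with sg2 in each of these 3. The list median of the log2 fold change was 0.76, and that of all genes tested 0.06. Of 5 genes of the immunoproteasome and its activator 3 rose and 0 fell, the peptide-cutting subunits Psmb8, Psmb9 and Psmb10. Psmb8 had 1389 counts with sg1 and 5398 with sg2, against 78 in the control, and rose 17.1-fold with sg1 and 59.3-fold with sg2 (edgeR adjusted p = 0.00124). Psmb9 had 293 and 1013 counts with the guides and 36 in the control, and rose 7.82-fold with sg1 and 24.1-fold with sg2 (adjusted p = 0.0104). Psmb10 rose 4.62-fold with sg1 and 10.595-fold with sg2 (adjusted p = 0.0112). These subunits too were higher with sg2. Of their 5 constitutive counterparts 0 passed edgeR's test, with 0 at an unadjusted p under 0.05 and 0 by DESeq2, limma-voom or limma-trend. The largest log2 fold changes among these were those of Psmb6 (0.73, edgeR adjusted p = 0.565) and Psmb5 (0.59, adjusted p = 0.630). The median log2 ratio of sg2 to sg1 was 0.92 for the counterparts. It was 0.89 for peptide transport and loading and 1.20 for the immunoproteasome and its activator. A higher level with sg2 was thus not particular to the lists with genes that rose.

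Of 16 genes of class I transactivation 2 rose and 0 fell, beside 6.33% of all genes tested that rose and 1.7% that fell. Nlrc5, the transactivator of class I promoters, had 448 counts with sg1 and 852 with sg2, against 17 in the control, and rose 34.2-fold (edgeR adjusted p = 0.00125). Relb, a subunit of NF-kappaB, had 598 and 926 counts with the guides and 96 in the control, and rose 7.13-fold (adjusted p = 0.0138). The median log2 fold change of this list was 0.55, and that of all genes tested 0.06. With limma-trend on log2(RPKM + 1), 0 genes of these lists or of those below passed. With limma-voom the calls of Tap2, Psmb9 and Relb were lost, and of the genes below those of Mr1, Col3a1, Calca and Chga.

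Related class I rows outside the 9 members were counted too, beside the 6.33% of all genes tested that rose. Of 24 further heavy chain symbols 20 were in the table, 9 of them at 0 in every library and 8 above the control with both guides. Of the 7 tested 0 passed edgeR's test, with 2 at an unadjusted p under 0.05 and 0 by DESeq2, limma-voom or limma-trend. The median log2 fold change of these 7 was 3.18, at low counts, with 446 as the highest of any. They thus leaned the same way as the members without passing. H2-Q10, a heavy chain known from liver, had 17 counts with sg1 and 10 with sg2, against 0 in the control (edgeR adjusted p = 0.258), and H2-T3 had 0, 19 and 0. Of 5 tested class I-like genes outside the complex 2 rose. Mr1, which presents vitamin B metabolites, had 159 counts with sg1 and 551 with sg2, against 0 in the control, at least 104-fold (edgeR adjusted p = 0.000964). Fcgrt, the neonatal Fc receptor and like Mr1 a partner of B2m, had 404 and 531 counts with the guides and 4 in the control, 105-fold (adjusted p = 0.000589). Of 4 tested class II genes Cd74, the invariant chain, rose, with 329 counts with sg1 and 399 with sg2, against 1 in the control. The pooled ratio was 329.9 (counting interval 59.0 to 13048; edgeR adjusted p = 0.000538). The class II chains H2-Aa, H2-Ab1 and H2-Eb1 were at 0 in all 3 libraries.

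Markers of other cells that express class I were measured beside these results. Of all genes tested 6.33% rose and 1.7% fell. Of 12 immune cell markers 2 had counts enough to be tested, Cd79a (edgeR adjusted p = 0.908) and Itgax (adjusted p = 0.391), and 0 passed, with 0 at an unadjusted p under 0.05 and 0 by DESeq2, limma-voom or limma-trend. Their summed level was 1.64 CPM with sg1 and 0.455 CPM with sg2, against 0.553 CPM in the control, and 36 was the highest count of any. Ptprc, which defines leukocytes, had 0, 1 and 0 counts, and Adgre1 and Ncr1 had 0 throughout. Of 7 tested fibroblast markers 4 rose and 0 fell: Col1a1, Col3a1, Pdgfra and Pdgfrb. The summed level of the 8 fibroblast markers was 397 CPM with sg1 and 177 CPM with sg2, against 7.59 CPM in the control, and Lum was at 0 in all. The fibroblast sum was thus higher with sg1 and the class I sum higher with sg2. Col1a1 was the largest part of the fibroblast sum with each guide, at 224 CPM with sg1 and 54.4 CPM with sg2. Single markers differed: Pdgfra had 46.6 CPM with sg1 and 48.8 CPM with sg2, and Thy1 had 8.17 and 16.9 CPM. The other tested fibroblast markers were higher with sg1. The part of such cells in the class I result was not tested. Of 10 neuroendocrine markers 2 fell, Neurod1 (log2 -2.38, edgeR adjusted p = 0.00362) and Chga (log2 -1.64, adjusted p = 0.0455), and Calca rose (log2 1.87, adjusted p = 0.0476). The calls of Chga and Calca held in 3 of 10 other analyses each.

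**Figure D5:**
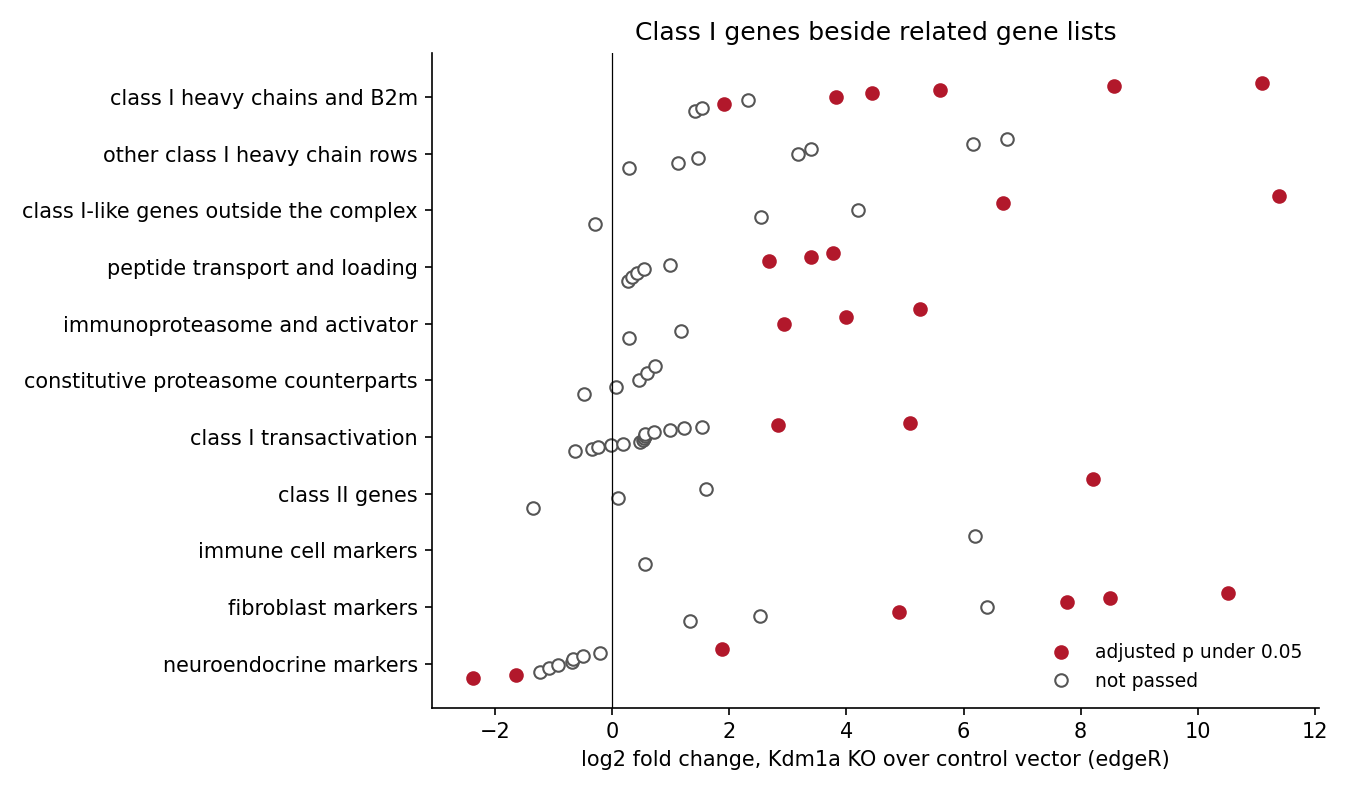
Log2 fold change of knock-out over control vector by edgeR for each tested gene of the class I group and of 10 related lists. Filled points passed at an adjusted p under 0.05 and open points did not, and points are spread vertically within a list to keep them apart. The 9 class I genes lie between 1.41 and 11.1, and the 5 genes listed as constitutive proteasome counterparts did not pass. For genes with 0 counts in the control, H2-Q6 and H2-Q7 among them, the plotted value depends on the prior count and is no measure of size.

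The genes whose pattern over the 3 libraries was most like that of B2m were found by the distance between the pairs of log2 fold changes with sg1 and sg2, among 10000 genes with a mean of at least 10 CPM. The nearest was Emp3, a small membrane protein, at a distance of 0.0899. It had 1413 counts with sg1 and 3315 with sg2, against 97 in the control. Next came Bst2, the interferon-induced tetherin, at 0.166, with 1184 and 2578 counts against 78, and Ehd2, an ATPase of caveolae, at 0.197, with 1134 and 3002 against 75. Cbr2, Cald1, Ltbp4, Anxa5 and Atoh8 followed at 0.201 to 0.304. The log2 fold changes of these 8 genes were 3.56 to 3.97 with sg1 and 4.63 to 5.15 with sg2. They were chosen on these values, so that their likeness to B2m is set by the choice.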

How the data were processed

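RNA was measured in 3 libraries of 1 mouse SCLC line, whose titles gave the groups. The table that the authors deposited holds raw counts per gene and, per the file headers, RPKM in further columns. The submitters' processing notes name TopHat2 2.0.12, Bowtie2 2.2.3 and HTSeq 0.6.1 with the mm10 build. Whether counting used the strand, and how it dealt with reads of more than 1 origin, is not given in those notes or in the labels. The authors' deposited lists of increased and decreased genes were used for membership alone.

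The counts were fitted with edgeR 4.0.16 (R 4.3.3) over all 3 libraries, with TMM factors, filterByExpr and glmQLFTest, and p-values were adjusted by Benjamini-Hochberg over the 15936 genes kept. The fit had 1 residual degree of freedom, the prior had 11.5, and the common coefficient of variation was 0.387. The SE is the log2 fold change over the square root of F. Per-guide log2 fold changes used TMM-scaled CPM and a prior count of 2. Counting intervals are exact, at 95%, and a count of 0 was given a limit of 3 counts per library. Gene positions and promoters are RefSeq's on GRCm38.p6. The edgeR fit, and no other step, was tested on simulated counts with known changes.

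The members, the gene lists and the motifs were chosen with earlier results of these data known, so that their direction is not independent evidence. Named are all 9 members, Kdm1a, up to 4 genes per list that passed with the largest log2 fold change (or the 2 largest where none passed), and the 8 genes nearest to B2m without predicted genes. Named outside this rule, after their values were seen, are the overlapping genes and the markers and class II chains at or near 0. So are the genes of the chromosome 17 interval that passed, and H2-T10, Thy1 and Ulbp1. Some listed markers are not reported here. Other analyses used the Wald test and the size factors of DESeq2 1.42.0, upper-quartile factors, library totals, no filter, a mean count of at least 50, limma-voom and limma-trend (limma 3.58.1) on log2(RPKM + 1) and log2(RPKM + 0.1), prior counts of 0.5 and 10, a fold of 2, each guide left out, and, added after the data were seen, removal of the gene length trend. Python 3.11.15, pandas 2.3.3, scipy 1.17.1 and matplotlib 3.10.9 were used.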

Additional observations from a re-analysis of the deposited data

How the results depend on the processing

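No paired analysis was possible because the control has 1 library and each guide 1, so that the groups share fewer than 2 replicate numbers. The 6 members called higher remained 6 in number with DESeq2 size factors, no filter and the DESeq2 Wald test. They were 4 with upper-quartile factors, library totals, a mean count of at least 50, limma-voom, limma-trend on log2(RPKM + 0.1) and, chosen after the data were seen, the length trend removed. They were 0 with limma-trend on log2(RPKM + 1), which called 27 genes higher and 4 lower among all genes against 1008 and 271 with edgeR; the cause was not tested. H2-D1 and H2-Q6 were the members not called where 4 passed; at a mean count of at least 50, H2-Q6 and H2-T23 were filtered out and 7 members tested. No member was called lower in any of these analyses, and no log2 fold change changed sign. The number of members at least 1.5-fold above the control with each guide, 9, was 8 at a prior count of 10, 6 with RPKM + 1 and 7 at a fold of 2, and with either guide left out they were 9 to 9. With summed counts in place of RPKM, H2-D1 made up 39.7% of the heavy chains with sg1 and 30.1% with sg2, H2-K1 52.4% with sg2 and H2-Q4 12.6% with sg2. Without a second control library, the spread of the control could not be measured, and the few counts of H2-T23 left its pooled ratio between 0.896 and 15.9.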

Other observations

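The neighbourhood of the class I genes on chromosome 17, from H2-K1 to H2-M3 (33996012 to 37274485), was examined without the rows whose symbol starts with H2-. Of 97 other genes tested in this interval 10 were called higher by edgeR and 0 lower, against 6.33% and 1.7% of all genes tested. Their median log2 fold change was 0.41, and that of all genes tested 0.06. Among the 10 were Tap1, Tap2, Psmb8 and Psmb9, which lie together between the class II genes. Without the listed genes, a choice made after the data were seen, 6 of 93 were called higher, 6.45% and thus close to the 6.33% of all genes. These were the imprinting factor Zfp57, the early response gene Ier3, the inducible heat shock genes Hspa1a and Hspa1b, the complement component C4b and the skin adhesion protein Cdsn. Hspa1a had 164 counts with sg1 and 1472 with sg2, against 5 in the control, and its near copy Hspa1b had 443 and 3689 against 7. Like the class I genes, both were higher with sg2 than with sg1, whereas C4b (59 and 47 counts, against 0) and Cdsn (129 and 57, against 0) were higher with sg1.

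Ligands of NKG2D, a receptor by which natural killer cells sense stressed cells, were counted as the counterpart of class I, which holds these cells back. Of 3 tested 2 were called higher by edgeR, beside 6.33% of all genes tested. Ulbp1, the most abundant of the list in each library, did not pass (adjusted p = 0.971). It had 799 counts with sg1 and 441 with sg2, against 539 in the control. Raet1e had 96 counts with sg1 and 135 with sg2, against 0 in the control, at least 34.7-fold for the mean of both guides (adjusted p = 0.0052). Raet1d had 24 and 163 counts with the guides, against 0 in the control, at least 27.1-fold for their mean (adjusted p = 0.0246). That mean came mostly from sg2, at 3.22 CPM against 0.532 CPM with sg1. The call held in 4 of 10 other analyses. With limma-voom neither Raet1e nor Raet1d passed.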
